A study of Homo sapiens with 14 samples.

Results

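Ribosome footprints on microsomal messages were compared between the cell line that carries tagged EMC6 and the other lines of the study, using only the libraries made before affinity purification. These are 7 input libraries of 14 in all, chosen by their labels and not by any measured value. The EMC6 inputs (n = 2) come from Flp-In T-REx 293 cells with an EMC6 knockout and a doxycycline-inducible 3Flag-EMC6 transgene. The EMC7 inputs (n = 2) come from cells with doxycycline-inducible 3Flag-EMC7 and the EMC10 inputs (n = 3) from cells with doxycycline-inducible 3Flag-EMC10, and the labels of these lines name no knockout. Flp-In T-REx 293 is a derivative of HEK293, a human embryonic kidney line, with a single recombination site for a tetracycline-controlled transgene. All cells received 0.5 to 1.0 ng/mL doxycycline for 72 h and cycloheximide at harvest. Microsomes were treated with micrococcal nuclease, pelleted and solubilized, and the cleared material is the input. The other 7 libraries are the material that Flag beads retained (IP). The labels do not say whether a line is a single clone, and line, genotype and preparation differ together, so their parts in any difference below cannot be told apart.

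The ER membrane protein complex (EMC) inserts transmembrane segments into the membrane of the endoplasmic reticulum (ER), mainly terminal or weakly hydrophobic ones that the Sec61 channel handles poorly. EMC6 is a small multi-pass subunit of the membrane core, whereas EMC7 and EMC10 are single-pass subunits with a luminal domain. Ribosomes that make secreted and membrane proteins dock on the ER and are carried into a microsome pellet, while footprints on messages for cytosolic, nuclear and mitochondrial proteins in the same pellet can come from ribosomes that were carried along without a signal sequence. In such bulk libraries fewer cells of a kind and less RNA per cell cannot be told apart.

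The inputs held 1692490 and 1835892 counts on genes in the EMC6 line, 3395114 and 2397165 in the EMC7 line, and 3133938, 3371471 and 2907065 in the EMC10 line. Reads outside genes made up 11.5% and 12.5% of all counts in EMC6 inputs, against 4.69% and 4.68% in the EMC7 line and 4.87%, 5.15% and 4.97% in the EMC10 line. The difference of 7.14 percentage points gave an exact two-sided permutation p of 0.0476, the smallest that 21 splits of 2 against 5 allow. Across genes the EMC6 pair correlated at r = 0.962, below the EMC7 pair at 0.985 and the EMC10 pairs at 0.987 to 0.988. Of 20 HEK293 marker genes 1 was at 0 in all inputs, and their summed level was 2262 to 2508 CPM (counts scaled to a common library total) in EMC6 inputs and 2980 to 3112 CPM in the others. The lower sum was not shared across the list. Of its 16 tested genes 5 were higher and 2 lower in the comparison below, with a median log2 difference of 0.24 relative to all genes. The abundant membrane protein CDH2 was among the lower ones. The blood cell list summed to 6.15 to 8.55 CPM against 16.2 to 21.6 CPM, with 3 of 8 genes at 0 throughout, and the fibroblast list to 18.1 to 20.5 CPM against 34.6 to 47.9 CPM, with 2 of 8 at 0. Of the liver and endothelial lists 7 of 8 and 4 of 5 genes were at 0 in all inputs. The part of other cell types in the results was not tested.

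Of 9458 genes tested, 1445 were higher (15.3%) and 2066 lower (21.8%), together 37.1%, in EMC6 inputs than in the mean of the other lines, at an adjusted p of 0.05 in edgeR's quasi-likelihood test. Against the EMC7 inputs alone 983 genes were higher (10.4%) and 1880 lower (19.9%), and against the EMC10 inputs alone 1180 (12.5%) and 1930 (20.4%). In EMC7 against EMC10 inputs 2 genes (0.0211%) passed this threshold, which are the tagged subunits themselves. EMC7 differed by 4.05 and EMC10 by -3.12 in EMC7 minus EMC10 inputs on the log2 scale (1 gene, or 0.0106%, in each direction). An unadjusted p under the same threshold was found for 161 genes (1.70%), fewer than that threshold gives without any difference. The spread was estimated over all lines together, including the EMC6 pair, which correlated least. Smaller differences between the EMC7 and EMC10 lines can thus go uncalled. The median log2 difference over all genes was 0.07 with TMM scaling, -0.01 with DESeq2 size factors, 0.37 with library size alone and 0.90 when the secreted, lysosomal and ER luminal lists were held constant. From each list median below, that of all genes was subtracted. The replicates are labelled as separate samples, but nothing says that they came from separate cultures, so the p-values reflect only how far these libraries spread, part of which may be technical.

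Footprints on membrane and secreted proteins were less abundant in the EMC6 inputs. With LSM4 and MAP4 set aside, the lists of membrane and secreted proteins took 19.1% and 24.1% of gene counts in EMC6 inputs, against 32.9% and 31.8% in the EMC7 line and 29.7%, 31.2% and 32.2% in the EMC10 line. The ranges do not overlap, and EMC6 input 1 was the lowest of all. Multi-pass proteins took 7.97 ± 1.43% in EMC6 inputs and 12.0 ± 0.43% in the others (SD, n = 2 and n = 5), single-pass proteins 3.05 ± 0.69% and 4.26 ± 0.19%, and secreted and luminal proteins 10.6 ± 1.4% and 15.3 ± 0.7%. Cytosolic lists moved the other way, at 12.5 ± 2.2% in EMC6 inputs and 9.80 ± 0.54% in the others, as did nuclear lists at 6.66 ± 0.69% and 4.87 ± 0.20% and mitochondrial lists at 2.78 ± 0.29% and 2.08 ± 0.06%. These are shares of a fixed total, so a fall in one class raises the others.

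**Figure D1:**
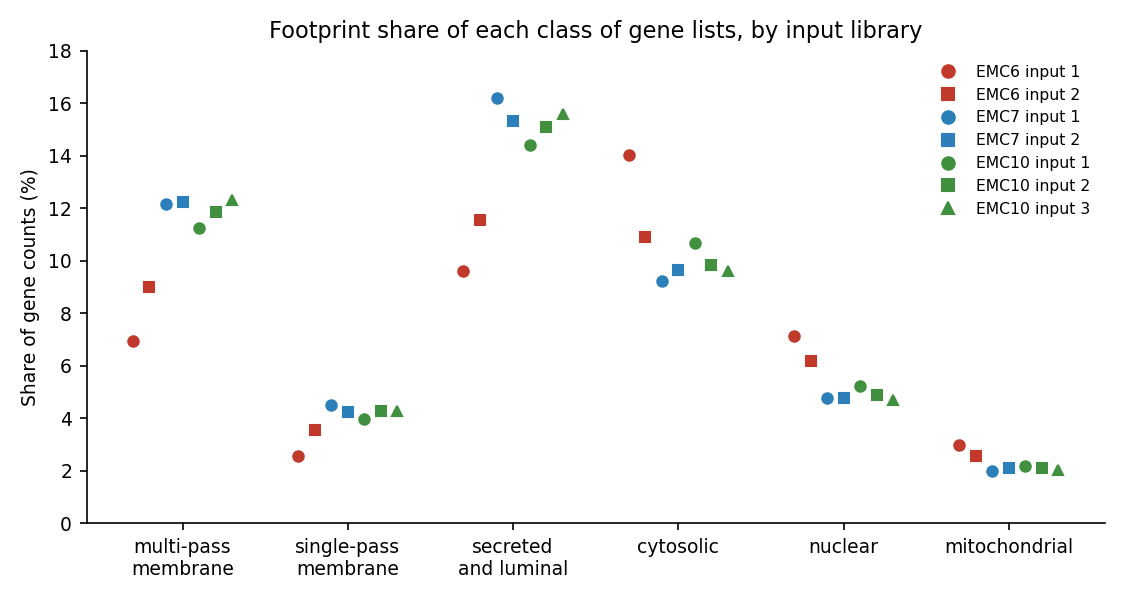
Share of the counts on genes (%, vertical axis, LSM4 and MAP4 left out) taken by 6 classes of gene lists, with 1 point per input library, EMC6 inputs in red, EMC7 in blue and EMC10 in green. Both EMC6 inputs lie below the other 5 for multi-pass, single-pass and secreted proteins, and above them for cytosolic, nuclear and mitochondrial proteins.

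Per gene, 738 of 1060 tested members of the membrane and secreted lists were lower and 38 were higher in EMC6 inputs. Multi-pass lists had 381 of 573 lower and 17 higher with a median of -0.93, single-pass lists 188 of 252 lower and 6 higher with a median of -0.90, and secreted and luminal lists 169 of 235 lower and 15 higher with a median of -0.85. The median of the 3 classes together was -1.13 in EMC6 input 1 and -0.60 in EMC6 input 2, against -0.13 to 0.10 in the other inputs. The difference was thus larger than the spread among the other lines in both EMC6 inputs, although these 2 inputs differed from each other as well. When the secreted, lysosomal and ER luminal lists were held constant, which sets their middle to 0 by construction, the members lower fell to 218.

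ER-resident proteins shared this direction to differing degrees. Of 28 genes for ER-associated degradation 19 were lower and 9 were not called. Of 67 ER luminal chaperones and folding enzymes 62 were lower and none higher, with a median of -1.02. Calreticulin (CALR), a calcium-binding lectin chaperone on chromosome 19, stood at 3216 and 2548 CPM in EMC6 inputs, against 7941, 7962, 7220, 6355 and 8582 CPM in the others, a log2 difference of -1.41 ± 0.17 (SE, adjusted p = 8.04e-08 in edgeR). PDIA4, a protein disulfide isomerase, had 943.2 and 908.5 CPM in EMC6 inputs and 2377 to 2906 CPM in the others, a difference of -1.52 ± 0.14. HSPA5, the ER Hsp70 known as BiP, had 2167 and 1678 CPM in EMC6 inputs and 3692 to 5076 CPM in the others, a difference of -1.24 ± 0.16. In each of these genes every EMC6 input lay below every other input.

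Most of the Sec61 and SRP machinery was lower as well, while of 6 tested genes of the GET pathway, which inserts tail-anchored proteins, 2 were lower and 1 higher. Of 27 genes for the Sec61 translocon, the signal recognition particle and signal peptidase 19 were lower and 3 higher, with SRPRB, the membrane-anchored subunit of the SRP receptor, at -1.54 ± 0.17. All 6 tested subunits of the multipass translocon, which works beside Sec61 on proteins with many membrane segments, were lower. NCLN had 89.3 and 97.2 CPM in EMC6 inputs, against 274 to 319 CPM in the others (-1.69 ± 0.15), TMEM147 differed by -1.36 ± 0.18 and CCDC47 by -1.03 ± 0.13. For lipid and glycan synthesis, 74 of 88 multi-pass lipid and GPI anchor enzymes were lower, with the GPI synthesis subunit PIGQ at -2.00 ± 0.23. Likewise 26 of 32 genes for N-glycan precursors and the oligosaccharyltransferase were lower, with the mannosyltransferase ALG1 at -1.83 ± 0.18.

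Proteins that move on along the secretory pathway showed the same direction. Of 29 TM9SF, YIPF and TMED trafficking proteins 26 were lower, including the cargo receptors SURF4 at -1.51 ± 0.16 and TMED2 at -1.47 ± 0.15. Of 44 lysosomal hydrolases and activators 41 were lower, and the alpha-mannosidase MAN2B1 stood at 78.1 and 72.9 CPM in EMC6 inputs and 273 to 323 CPM in the others. Of 85 type II Golgi enzymes 64 were lower, with the galactosyltransferase B3GALT6 at -1.98 ± 0.20. Collagens, laminins and other secreted proteins were more mixed, with 67 of 125 lower, 14 higher and a median of -0.68.

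Transporters, channels, receptors and adhesion proteins, of the plasma membrane and of organelles, also followed the class. Of 181 solute carriers 116 were lower and 6 higher, with a median of -0.95, and SLC16A13, a member of the monocarboxylate transporter family, had 5.79 and 8.90 CPM in EMC6 inputs, against 30.4 to 50.03 CPM in the others. Of 32 tetraspanins and claudins 26 were lower, of 62 G protein-coupled receptors 34, of 86 ion channels 38 and of 71 integrins, cadherins and other adhesion proteins 56. The gap junction protein connexin 43 (GJA1) had 173 and 169 CPM in EMC6 inputs and 461 to 569 CPM in the others (-1.64 ± 0.15). N-cadherin (CDH2) had 396 and 511.6 CPM in EMC6 inputs and 1099 to 1341 CPM in the others (-1.44 ± 0.15). The receptor tyrosine kinase ERBB4 differed by -1.98 ± 0.22 and the drug efflux pump ABCB1 by -1.49 ± 0.15.

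Tail-anchored proteins, which enter membranes after translation ends, did not share that shift. Of 42 SNAREs and other tail-anchored proteins 4 were lower and 2 higher, with a median of 0.05, or -0.001962 without EMC6 input 2. VAPB, a tail-anchored tether of the ER, had 22.8 and 25.3 CPM in EMC6 inputs and 10.9 to 15.3 CPM in the others (0.90 ± 0.21), while TOMM22, a tail-anchored receptor of the mitochondrial outer membrane, differed by -1.27 ± 0.21.

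**Figure D2:**
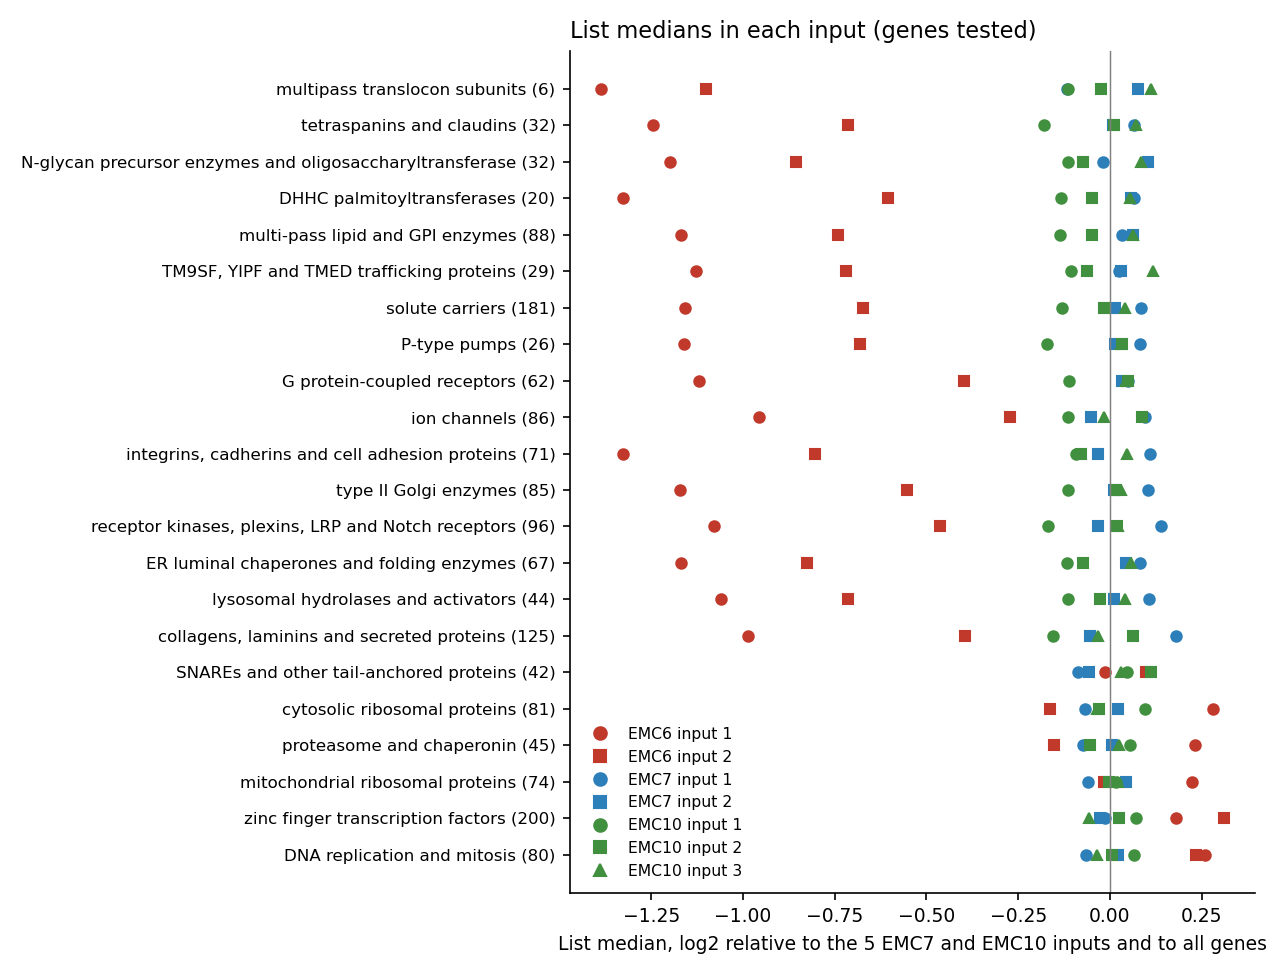
Median of each of 22 gene lists (number of genes tested in brackets) in each input library, as the log2 level minus the mean of the 5 EMC7 and EMC10 inputs and minus the library's median over all genes. From the multipass translocon down to the secreted proteins both EMC6 inputs (red) lie left of all other inputs, with EMC6 input 1 farther left, whereas for the tail-anchored list and the lists under it the EMC6 inputs lie much closer to 0 and partly on either side of it.

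Lists for proteins made in the cytosol had medians near that of all genes. The shares above are of gene counts without TMM scaling, so shares and medians are not on the same scale. Cytosolic lists had 58 of 317 members higher (18.3%) and 32 lower with a median of 0.06, and mitochondrial lists 38 of 226 higher (16.8%) and 23 lower with a median of 0.03, both close to the 15.3% of all genes that were higher. Without EMC6 input 1 these medians were -0.09 and -0.05, and 27 cytosolic and 20 mitochondrial members were higher, so their direction rested on that library. With DESeq2 36 cytosolic and 23 mitochondrial members were higher, and 713 of all genes, against 1445 in edgeR. Fewer of all genes were also higher in each fit without 1 input, so a smaller count there is not particular to a list. Nuclear lists had 98 of 433 higher (22.6%) and 17 lower, with 63 higher without EMC6 input 2, 60 without EMC6 input 1 and 46 with DESeq2. Of 200 zinc finger transcription factors 45 were higher (22.5%) and 3 lower. Many of these calls were lost without EMC6 input 2. With DESeq2 15 were higher, near the share of all genes in that fit. The list median was 0.20, and 0.21 to 0.36 over the fits without 1 input. Of 80 genes for DNA replication and mitosis 24 were higher (30%) and 1 lower (1.25%), beside 15.3% and 21.8% of all tested genes. With DESeq2 11 were higher, and many of the calls were lost without either EMC6 input. The list median was 0.23, and 0.18 to 0.25 over the fits without 1 input. Calls in this list were also fewer without EMC7 input 1, EMC7 input 2 or EMC10 input 3.

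Single genes of these lists nevertheless differed clearly. EIF1, which selects the start codon, had 125 and 150 CPM in EMC6 inputs and 45.6 to 61.1 CPM in the others (1.40 ± 0.14). The histone gene H2BC12 stood at 89.0 and 95.1 CPM in EMC6 inputs and at 19.1 to 38.3 CPM in the others (1.63 ± 0.18), and lamin A/C (LMNA) at 130 and 111 CPM against 59.2 to 66.8 CPM (0.94 ± 0.14). The mitochondrial elongation factor TUFM had 288 and 293 CPM in EMC6 inputs and 563 to 625 CPM in the others (-1.06 ± 0.14). The ribosomal protein RPL34 differed by 0.91 ± 0.15, the cytochrome oxidase subunit COX7C by 0.91 ± 0.15 and the mitochondrial ribosomal protein MRPL30 by 1.32 ± 0.21.

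Many of the largest differences belonged to genes with few counts on one side. FBXO27, a glycoprotein-binding F-box protein (chromosome 19, 39005842 to 39032549, GRCh38), had 494 and 464 counts in EMC6 inputs, which is 179 and 159 CPM, and 4 counts in the other 5 inputs together. The ratio of pooled CPM was 842 with a counting interval of 328 to 3098 (95%, for counting error only). SPEG, a muscle-type kinase (chromosome 2), had 196 and 188 CPM in EMC6 inputs and 0.32 to 1.34 CPM in the others. RSPH6A, a radial spoke protein of cilia (chromosome 19), had 103 counts in EMC6 inputs and 2 in the others, a pooled ratio of 181 with an interval of 48.9 to 1515. GSTP1, a glutathione transferase (chromosome 11), had 24.2 and 32.2 CPM in EMC6 inputs and 0.00 to 0.54 CPM in the others.

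LSM4 and MAP4 stood apart by their abundance. LSM4 (chromosome 19), a subunit of RNA-binding LSM rings, had 62386 and 87716 counts in EMC6 inputs and 175 to 281 in the others, and took 3.69% and 4.78% of all gene counts in the EMC6 line. On the normalised scale that was 22560 and 30010 CPM in EMC6 inputs, against 65.4, 56.3, 59.1, 58.9 and 68.3 CPM in the others, a log2 difference of 8.74 ± 0.16 (adjusted p = 4.15e-32 in edgeR). MAP4 (chromosome 3), a microtubule-associated protein, took 1.69% and 2.59% of gene counts in EMC6 inputs, with 10360 and 16240 CPM there and 80.1 to 93.7 CPM in the others (7.22 ± 0.17). A gene-level table does not show where in the message these counts lie, and duplicate removal is not given in the sources used here.

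The other 6 of the 12 largest rises were between 3.49 and 3.70 on the log2 scale. LCP1 (chromosome 13), an actin-bundling plastin of blood cells, had 104 and 77.7 CPM in EMC6 inputs and 5.15 to 10.9 CPM in the others (3.58 ± 0.19). The small GTPase RASL10B (3.70), the O-glycosylation enzyme GALNT13 (3.57), the forkhead factor FOXO6 (3.57), the neural adhesion protein LSAMP (3.52) and the helix-loop-helix inhibitor ID1 (3.49) had 6.15 to 29.1 CPM in EMC6 inputs and at most 4.18 CPM in the others. Without EMC6 input 2 RASL10B stood at 2.93 and GALNT13 at 2.95.

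Among the largest falls, P-cadherin (CDH3, chromosome 16) had 1 count in each EMC6 input, against 54.0, 40.9, 46.1, 62.2 and 48.2 CPM in the others, a pooled ratio of 0.00689 with an interval of 0.000833 to 0.025. The sodium leak channel NALCN (chromosome 13) had 0 and 2 counts in EMC6 inputs and 8.35 to 12.8 CPM in the others. The calcium pump ATP2B3 and the matrix protein SPARC had 3 counts each over both EMC6 inputs, with pooled ratios of 0.0365 (interval 0.00749 to 0.108) and 0.0457 (0.00935 to 0.135). CGA, the alpha subunit of glycoprotein hormones, had 0 and 22 counts in EMC6 inputs, which is 0.00 and 7.53 CPM, against 42.9 to 79.1 CPM in the others. In each of these genes both EMC6 inputs lay below all others.

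Further falls, beside those of EMC10 and CTNS described below, were in the growth factor PDGFD (-4.49 ± 0.46), the protocadherin PCDH19 (-4.05 ± 0.26), the teneurin TENM1 (-3.94 ± 0.59), the oxysterol hydroxylase CYP7B1 (-3.25 ± 0.43) and FAM71E1 (-4.63 ± 0.37), whose annotated interval overlaps the start of EMC10. Fits of genes with a library at 0 counts moved with that library. Without EMC6 input 1 the log2 difference was -2.91 for CGA, -3.94 for NALCN, -3.58 for PDGFD and -7.74 for TENM1, and without EMC6 input 2 it was -10.01, -7.68, -8.58 and -3.01 for these 4 genes in that order. PCDH19 stood at -5.15 without EMC6 input 2 and CYP7B1 at -4.07 without EMC6 input 1. Without EMC10 input 2, which held its only counts outside the EMC6 line, RSPH6A was fitted at 8.29, against 7.41 with it.

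**Figure D3:**
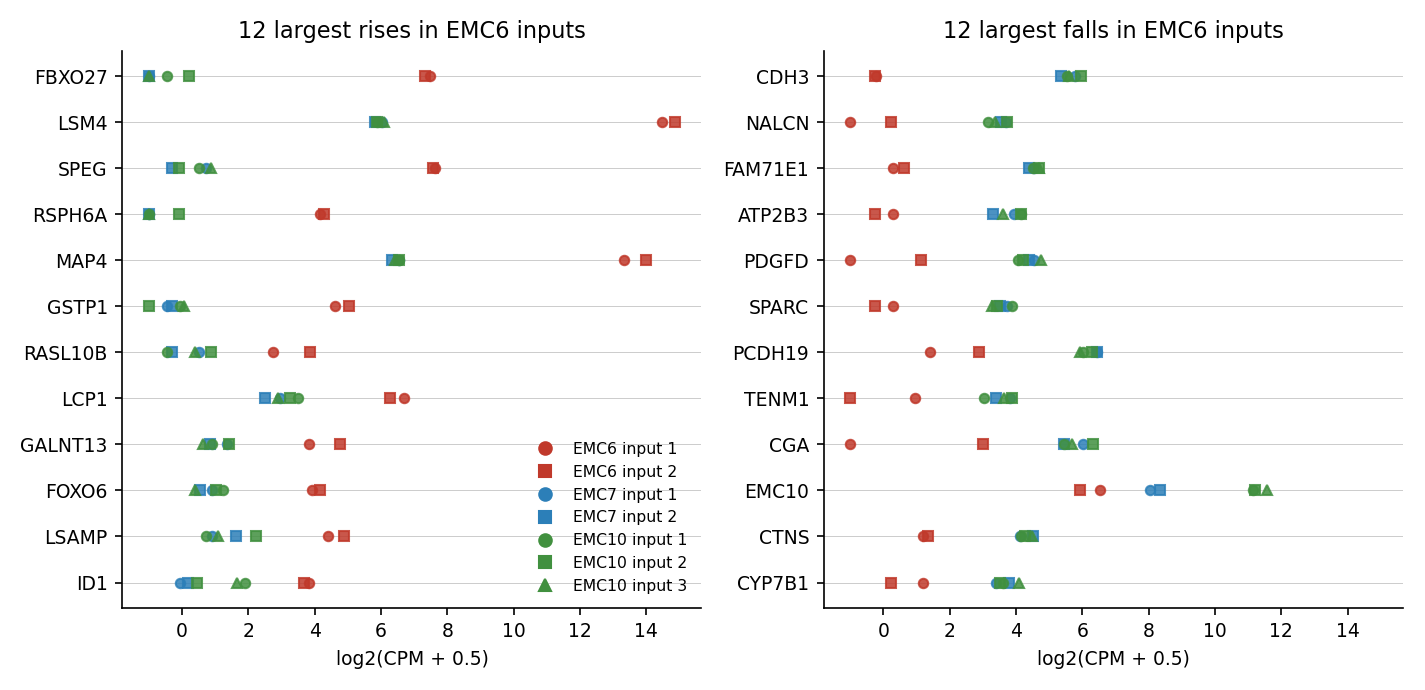
Level of the 12 genes with the largest rise (left panel) and the 12 with the largest fall (right panel) in EMC6 inputs, as log2(CPM + 0.5) on the horizontal axis, with 1 point per input library. In every row both EMC6 inputs (red) lie beyond all 5 EMC7 (blue) and EMC10 (green) inputs, which was part of the rule for choosing these genes and held for 24.2% of all tested genes above and 25% below.

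The IP libraries are further libraries from the same preparations. They shared the filter, scaling and spread estimate of the fit that ranked these genes, but not the input means that were compared. All 12 rises lay above every other IP in both EMC6 IPs, and all 12 falls lay below every other IP, where 14.4% and 21% of all tested genes did so in each direction. LSM4 had 76220 and 97650 CPM in EMC6 IPs, against 51.8 to 66.3 CPM in the others, and FBXO27 had 39.3 and 42.7 CPM in EMC6 IPs and 0 counts in the others. Rises such as FBXO27 and RSPH6A, with 4 and 2 counts in the other 5 inputs together, passed the filter through the EMC6 libraries. For such genes the share over all tested genes is not a like comparison. EMC10, among the falls, is the bait of the EMC10 IPs and stood at 383100 to 423300 CPM there. Line and bait differ together in the IPs, so these values do not separate them.

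Among the EMC subunits, the bait messages come first. EMC6 (chromosome 17, 3668812 to 3669665) had 51 and 85 counts in EMC6 inputs, which is 18.4 and 29.1 CPM, against 26.5, 28.3, 30.8, 26.4 and 33.0 CPM in the others. The difference of -0.26 ± 0.20 was not called (adjusted p = 0.325 in edgeR), and without EMC6 input 2 it was called at -0.69 (adjusted p = 0.0367). Counts per symbol do not tell the transgene from the endogenous gene, so they do not check the knockout. EMC7 stood at 109 and 129 CPM in EMC6 inputs, against 4215 and 4644 CPM in the EMC7 line, which carries its transgene, and 225 to 314 CPM in the EMC10 line. EMC10 stood at 92.9 and 60.2 CPM in EMC6 inputs, against 264 and 327 CPM in the EMC7 line and 2270 to 3062 CPM in its own. Against the line in which it is not tagged, EMC7 differed by -1.16 (adjusted p = 0.000608) and EMC10 by -1.95 (adjusted p = 1.45e-09).

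The other membrane subunits followed the secretory lists in part. EMC1, the largest subunit with a luminal domain, had 386 and 480 CPM in EMC6 inputs, against 1074, 989.6, 895.1, 966 and 1059 CPM in the others (-1.21 ± 0.14). MMGT1, also called EMC5, differed by -0.77 ± 0.19, the insertase subunit EMC3 by -0.68 ± 0.15 and EMC4 by -0.58 ± 0.16, all called lower, and MMGT1 was no longer called without EMC6 input 1 (-0.55, adjusted p = 0.0563). With the secreted and luminal lists held constant EMC3, EMC4 and MMGT1 stood at 0.14, 0.24 and 0.02. The cytosolic subunits EMC8 and EMC9 were not called (-0.32 ± 0.26 and 0.29 ± 0.39). EMC2, the cytosolic scaffold, was higher by 0.61 ± 0.24 (adjusted p = 0.0449), a call that was lost with DESeq2 (adjusted p = 0.223), in the fit of the 7 inputs alone (0.0587), and without EMC6 input 1 (0.578), EMC7 input 1 (0.208) or EMC10 input 3 (0.107).

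Of 10 tested genes near EMC6, 2 were higher (20%) and 2 lower (20%), beside 15.3% and 21.8% of all tested genes. The share called was thus near that of all genes. Counts of EMC6 do not tell it from the transgene, so its own difference is not a like measure for its neighbours. TAX1BP3, a PDZ protein that starts beside EMC6 on the opposite strand (chromosome 17, 3662895 to 3668578), had 41.2 and 19.9 CPM in EMC6 inputs, against 2.33, 3.22, 4.17, 1.76 and 4.29 CPM in the others (3.31 ± 0.41, adjusted p = 6.69e-06 in edgeR), and 2.68 without EMC6 input 1. CTNS, the lysosomal cystine transporter (3636459 to 3663103), had 1.81 and 2.05 CPM in EMC6 inputs, against 16.8 to 22.5 CPM in the others (-3.29 ± 0.36). P2RX5, an ATP-gated channel (3673227 to 3723835), had 7.60 and 21.2 CPM in EMC6 inputs, against 51.8 to 66.4 CPM in the others (-2.05 ± 0.23), and -3.04 without EMC6 input 2. TRPV1, which lies beyond CTNS and SHPK, had 17 counts in EMC6 inputs and 5 in the others and was called higher on these few counts. The other 6 tested neighbours, among them SHPK, HASPIN and CAMKK1, were not called.

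CTNS and TAX1BP3 share 209 annotated bases at their 3′ ends and lie on opposite strands, and no source used here gives the strand setting of the counting, so reads in the shared part cannot be told apart. The bases between the starts of TAX1BP3 and EMC6 are shown because both genes read outward from this interval. The counts do not measure endogenous EMC6 apart from the transgene. It is chr17:3668579-3668811 in RefSeq's GRCh38.p14 table, 233 bases on the plus strand, with EMC6 to the right and TAX1BP3 to the left:

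EMC6 and TAX1BP3 interval: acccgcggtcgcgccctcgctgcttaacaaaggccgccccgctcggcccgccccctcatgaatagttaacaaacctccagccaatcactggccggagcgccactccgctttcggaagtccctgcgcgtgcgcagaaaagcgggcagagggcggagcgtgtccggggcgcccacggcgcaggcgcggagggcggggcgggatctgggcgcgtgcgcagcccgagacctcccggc

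Stress-response genes were examined by list. Targets of ATF6 and XBP1, transcription factors of the unfolded protein response, encode mostly ER chaperones and degradation factors. Of 23 tested 20 were lower and none higher, with a median of -1.001. Of these, 13 are also in the membrane and secreted lists and all 13 were lower, and of the other 10, 7 were lower. DERL2, a subunit of the channel for ER-associated degradation, had 18.4 and 21.2 CPM in EMC6 inputs and 64.0 to 80.9 CPM in the others (-1.92 ± 0.19), and SDF2L1 differed by -1.54 ± 0.19. With the secreted and luminal lists held constant 6 were lower and 3 higher.

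Targets of ATF4, the transcription factor of the integrated stress response, moved the other way. ATF4 is induced when eIF2 is phosphorylated and drives genes for amino acid synthesis, transport and tRNA charging. Of 28 tested 18 were higher (64.3%) and 3 lower. Outside the membrane and secreted lists 17 of 22 were higher and none lower, with a median of 0.54. The count of 18 rested largely on EMC6 input 2. It was 4 without EMC6 input 2 and 20 without EMC6 input 1, and the list median was 0.46 with both, 0.18 without EMC6 input 2 and 0.74 without EMC6 input 1. All 28 were higher in EMC6 input 2 than in EMC6 input 1, as were 54.1% of all genes. With DESeq2 11 were higher, and 6 against a fold of 1.5.

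The enzyme of mitochondrial folate metabolism ALDH1L2 (chromosome 12) had 12.3 and 33.9 CPM in EMC6 inputs, against 1.86, 3.86, 1.16, 1.98 and 1.34 CPM in the others (3.48 ± 0.42, 2.52 without EMC6 input 2). GDF15, a secreted stress cytokine, had 23.9 and 59.5 CPM in EMC6 inputs, against 5.12, 4.18, 4.87, 5.72 and 3.48 CPM in the others (3.13 ± 0.27, 2.27 without EMC6 input 2). DDIT4, an inhibitor of mTORC1, had 30.4 and 59.9 CPM in EMC6 inputs, against 15.1 to 17.2 CPM in the others (1.46 ± 0.22, 0.83 without EMC6 input 2). In these 3 genes both EMC6 inputs lay above all others. Asparagine synthetase (ASNS) had 155 and 402 CPM in EMC6 inputs, against 113, 97.8, 119, 150 and 97.5 CPM in the others, a difference of 1.29 ± 0.34 (adjusted p = 0.0129) that stood at 0.39 without EMC6 input 2 (adjusted p = 0.305).

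Several others lost their call in the same way. Without EMC6 input 2 the glutathione-degrading CHAC1 (2.32) stood at 1.22, the pseudokinase TRIB3 (1.37) at 0.78, the transcription factor ATF3 (1.30) at 0.73, sestrin 2 (SESN2, 1.00) at 0.48 and the serine synthesis enzyme PHGDH (0.62) at 0.37, with adjusted p of 0.338, 0.271, 0.154, 0.213 and 0.0695. ATF4 itself was not called, with 15.6 and 35.2 CPM in EMC6 inputs and 15.0 to 26.6 CPM in the others. The 3 members called lower were amino acid transporters, SLC7A5 at -1.99 ± 0.25, its partner SLC3A2 at -1.09 ± 0.19 and SLC7A1 at -0.70 ± 0.18. SLC7A5 stood at -2.67 without EMC6 input 2, and SLC7A1 lost its call without EMC6 input 1 (-0.36, adjusted p = 0.134).

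**Figure D4:**
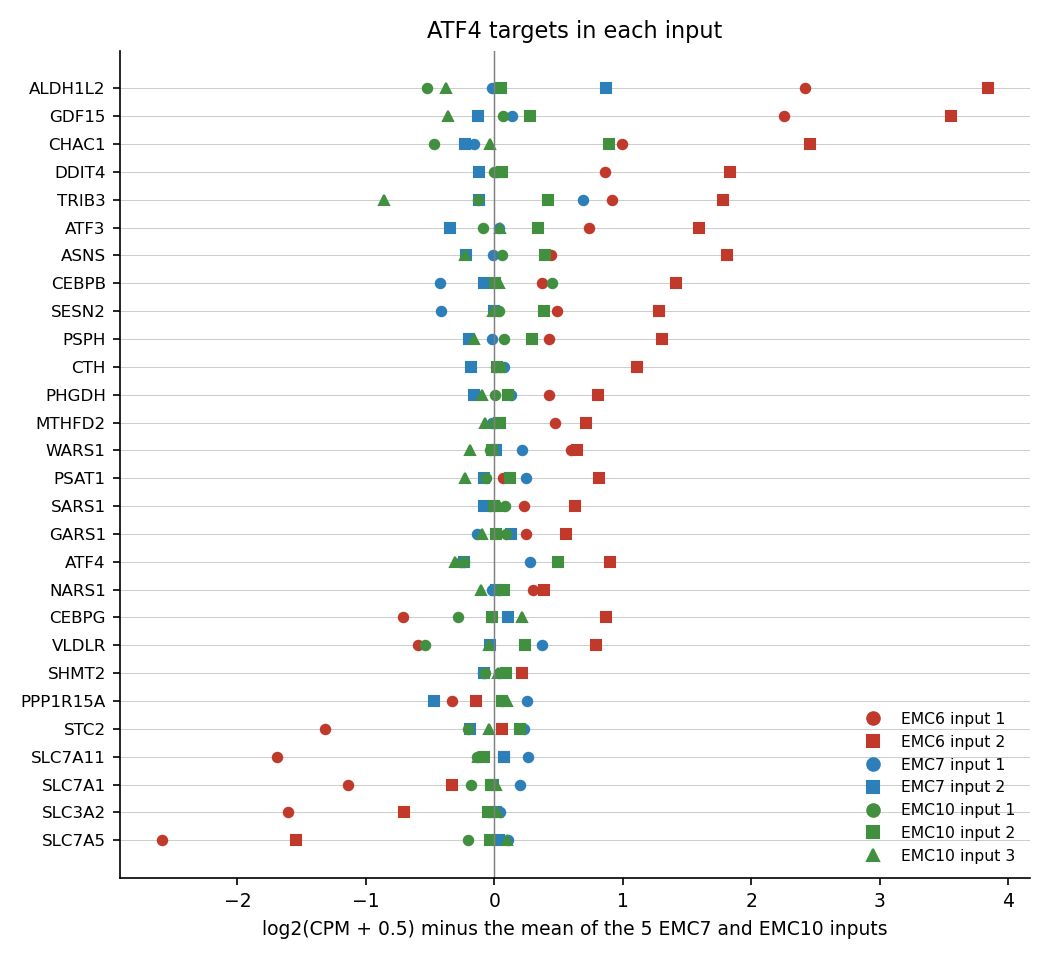
Level of the 28 tested ATF4 targets in each input, as log2(CPM + 0.5) minus the mean of the 5 EMC7 and EMC10 inputs, ordered by log2 difference with the highest at the top. EMC6 input 2 (red squares) lies to the right of EMC6 input 1 (red circles) in all 28 rows, and SLC7A5, SLC3A2 and SLC7A1 at the bottom have both EMC6 inputs to the left of 0.

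ATF4 and its C/EBP partners are known to bind composite elements with the core letters TGATGNAA. In windows of 250 bases before to 50 bases after each start in RefSeq's GRCh38.p14 table, these letters stood on either strand in 8 of 24 tested ATF4 targets with a window (33.3%) and in 1217 of 27305 symbols in all (4.46%). They stood in 5 of 16 targets called higher (31.2%). The list was compiled from known ATF4 targets, so this share describes the list and not these libraries. Matches before a start in that table are shown, which holds several starts for some genes, so those of ASNS, GARS1 and CEBPG lie inside the annotated gene interval. They run 5′ to 3′ on the strand of the gene, with the matched letters in capitals (read on the opposite strand in CHAC1 and GARS1), because these genes carry the difference described above, except CEBPG, which was not called:

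ASNS, chr7:97872443-97872502: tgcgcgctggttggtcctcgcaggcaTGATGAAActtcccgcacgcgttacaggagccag
ATF3, chr1:212565190-212565249: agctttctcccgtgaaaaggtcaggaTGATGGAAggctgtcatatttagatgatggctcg
CHAC1, chr15:40953236-40953295: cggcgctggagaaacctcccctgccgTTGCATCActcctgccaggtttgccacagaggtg
GARS1, chr7:30594819-30594877: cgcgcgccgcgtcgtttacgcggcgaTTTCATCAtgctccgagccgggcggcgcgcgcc
CEBPG, chr19:33374045-33374104: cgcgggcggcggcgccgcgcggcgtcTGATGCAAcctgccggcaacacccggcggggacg

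The glycyl-tRNA synthetase GARS1 (0.41 ± 0.15) had 117 and 145 CPM in EMC6 inputs and 89.4 to 108 CPM in the others, and its call was lost without EMC6 input 2 (adjusted p = 0.433), EMC7 input 1 (0.149), EMC10 input 2 (0.0533) or EMC10 input 3 (0.0695) and with DESeq2 (0.152). CEBPG, a partner of ATF4, had 4.70 and 15.1 CPM in EMC6 inputs and 6.49 to 9.38 CPM in the others.

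Members of the cholesterol list differed in both directions. Of 25 tested genes of cholesterol synthesis and other SREBP2 targets 5 were higher (20%) and 10 lower (40%), beside 15.3% and 21.8% of all tested genes. HMGCS1, the soluble enzyme at the entry of the pathway, had 292 and 263 CPM in EMC6 inputs, against 95.9, 93.3, 89.7, 105 and 77.2 CPM in the others (1.58 ± 0.14, adjusted p = 1.38e-10), and IDI1, the soluble isopentenyl diphosphate isomerase, differed by 1.17 ± 0.17. The sterol reductase DHCR7, a multi-pass membrane enzyme, differed by -0.94 ± 0.13. Of the 11 members also in the membrane and secreted lists 8 were lower and 2 higher. Of the other 14, 3 were higher and 2 lower, with a median of -0.02, close to that of all genes.

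Of 16 tested p53 targets 6 were higher (37.5%) and 2 lower (12.5%), beside 15.3% and 21.8% of all tested genes. Part of the 6 calls was lost without EMC6 input 2. The list median was 0.30, and 0.28 to 0.51 over the fits without 1 input. The cell cycle inhibitor CDKN1A had 14.8 and 17.5 CPM in EMC6 inputs and 4.02 to 7.45 CPM in the others (1.53 ± 0.28), and MDM2, the ubiquitin ligase of p53, had 48.8 and 35.6 CPM in EMC6 inputs and 16.4 to 25.3 CPM in the others (1.06 ± 0.19). The death receptor FAS, a membrane protein, differed by -0.93 ± 0.20. Of 14 heat shock genes none was higher and 1 was lower.

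Gene position was examined because adjacent genes at the EMC6 locus had differed, although the share called there was near that of all genes. The windows below were chosen after the chromosome values were seen. On chromosome 13, 80 of 181 genes were higher (44.2%) and 28 lower, with a median of 0.46 relative to all genes. The median of chromosome 13 was 0.41 and 0.40 in EMC6 inputs, against -0.01 to 0.00 in the others. On chromosome 16, 102 of 395 genes were lower (25.8%) and 10 higher (2.53%), with a median of -0.31. The share lower was near the 21.8% of all tested genes, whereas the share higher was below the 15.3% of all tested genes. Library medians were -0.28 and -0.27 in EMC6 inputs, against -0.03 to 0.04 in the others. The other chromosomes had medians between -0.15 and 0.10. The difference between EMC7 and EMC10 inputs had a median of -0.02 on chromosome 13 and -0.04 on chromosome 16.

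Outside the membrane and secreted lists the same chromosomes stood apart. On chromosome 13, 79 of 157 such genes were higher (50.3%). On chromosome 16, 10 of 365 were higher (2.74%) and 84 lower (23%). The chromosomes other than these had 9.81% to 24.9% of such genes higher and 9.21% to 20.9% lower. Of 140 windows of 20 megabases with at least 20 such genes, the central 90% had medians between -0.28 and 0.17. The windows from 40 to 60 and from 100 to 120 megabases of chromosome 13 had medians of 0.71 and 0.60, with 31 of 42 and 18 of 30 genes higher. The window from 60 to 80 megabases of chromosome 16 had a median of -0.59, with 29 of 83 genes lower and 0 higher. The shift did not run the length of either chromosome, with medians of 0.08 from 20 to 40 megabases of chromosome 13 and 0.15 from 80 to 100 megabases of chromosome 16. Toward the end of chromosome 2, the windows from 200 to 220 and from 220 to 240 megabases had medians of -0.43 and -0.50, and the first 20 megabases of chromosome 17, which hold EMC6, had -0.35.

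Of the named genes on chromosome 13, LCP1 lies in the first of these windows. The transcription factor ZIC5 differed by 2.02 ± 0.24, the kinase DCLK1 by 1.68 ± 0.25 and the exosome subunit EXOSC8 by 1.45 ± 0.19, whereas NALCN on the same chromosome was among the largest falls. On chromosome 16, CDH3 lies in the window with the lowest median, the drug exporter ABCC1 differed by -2.20 ± 0.30, the lysosomal transporter SPNS1 by -2.16 ± 0.19 and TMEM208 by -1.94 ± 0.18. The IPs had chromosome 13 medians of 0.23 and 0.43 in the EMC6 line, against -0.03 to 0.04 in the others, and chromosome 16 medians of -0.35 and -0.25, against -0.01 to 0.05.

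**Figure D5:**
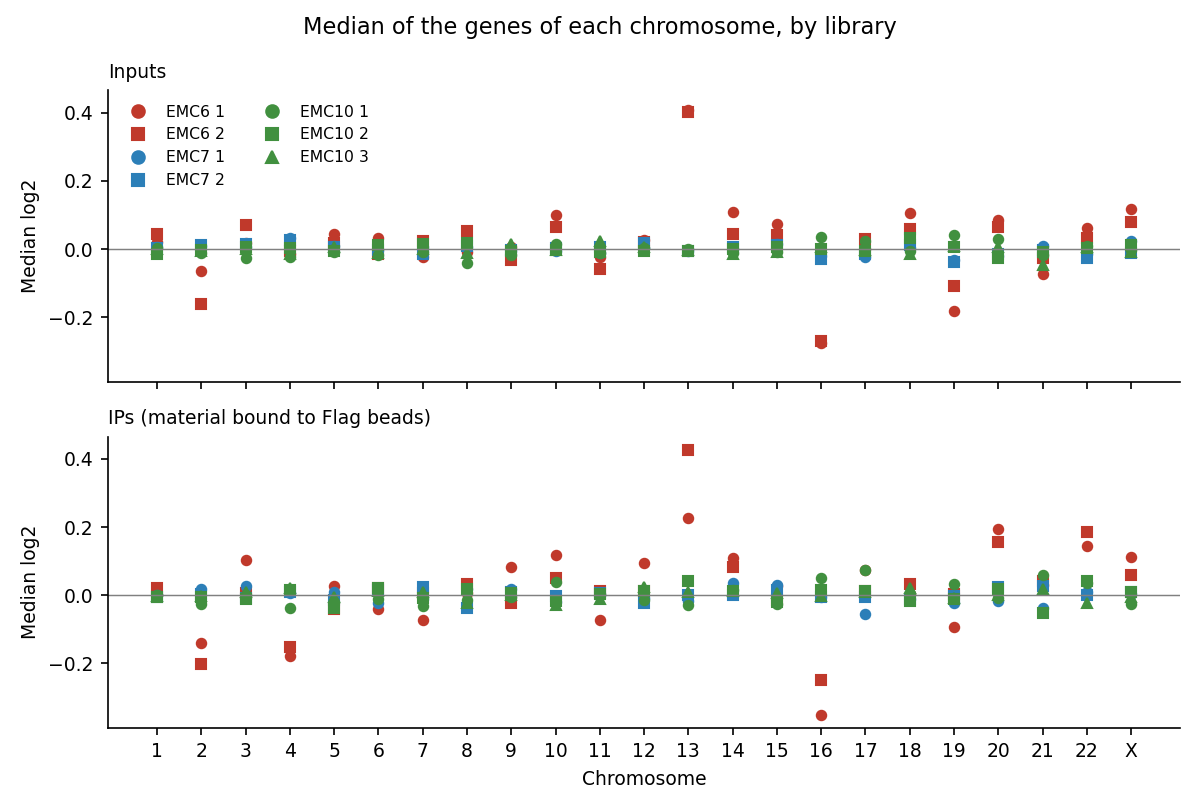
Median over the genes of each chromosome of the log2 level minus the mean of the 5 EMC7 and EMC10 libraries of the same kind and minus the library's median over all genes, in inputs (top) and IPs (bottom), with 1 point per library. In the inputs the EMC6 libraries (red) lie highest at chromosome 13 and lowest at chromosome 16, and the points of the other lines stay near 0.

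Few genes of other cell types were measurable. CD68, a lysosomal protein of macrophages, had 5.06 and 8.21 CPM in EMC6 inputs, against 16 to 21.4 CPM in the others (-1.49 ± 0.26), and was the one tested gene of the blood cell list. The collagen COL3A1 had 8.68 and 7.19 CPM in EMC6 inputs and 30.3 to 42.4 CPM in the others (-2.24 ± 0.25), whereas COL1A1, the other tested gene of the fibroblast list, had 8.32 and 12.0 CPM in EMC6 inputs and 2.25 to 4.65 CPM in the others (1.36 ± 0.31). Its call was lost without EMC6 input 2 (1.02, adjusted p = 0.0662). Among the HEK293 markers 5 of 16 tested were higher and 2 lower, with the intermediate filament gene INA at 45.9 and 35.6 CPM in EMC6 inputs and 16.3 to 21.4 CPM in the others (1.15 ± 0.17) and keratin 8 (KRT8) at -0.90 ± 0.15.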

How the data were processed

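Ribosome-protected fragments were sequenced from solubilized microsomes (input) and Flag-purified material (IP) of 3 lines. The authors deposited whole-number counts per gene symbol for each library, without normalization. Per the submitters' processing notes the tools were TopHat2 2.1.0, Bowtie2 2.2.6 and Cutadapt 4.1, with hg38 as the build. Annotation, strand setting and duplicate removal: not given in the sources used here. Of 19440 symbols 18968 matched RefSeq's GRCh38.p14 table directly and 397 through an older symbol. The 5 rows without a gene name entered neither library sizes nor tests, and their share of each library is given with the results.

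The 14 libraries were fitted together, each line and fraction having its own mean, in R 4.3.3 with edgeR 4.0.16 and limma 3.58.1, using TMM scaling, filterByExpr (9458 genes kept), a robust quasi-likelihood test and Benjamini-Hochberg adjustment over all genes tested at 0.05. The EMC6 inputs were set against the mean of the EMC7 and EMC10 input means. All printed gene-level adjusted p-values are from that fit unless DESeq2 1.42.0 or another setting is named. Values are normalised CPM, differences are log2 ± SE, and "others" are the 5 EMC7 and EMC10 inputs, in the order EMC7 inputs 1 and 2, then EMC10 inputs 1, 2 and 3. "Called" means past the threshold.

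Named genes were the 12 largest rises and falls with at least 10 CPM in the higher group and both EMC6 inputs beyond all others, LSM4 and MAP4, the 10 subunits of the EMC, and at most 4 members of any list. Other members of the subunit, locus, stress, cholesterol, p53, marker and multipass translocon lists, and genes of chromosomes 13 and 16, were named after their values were seen. Members and lists were chosen with earlier results of these data known. Pooled ratios carry exact 95% intervals. The fit was tested on simulated counts. Some members of the cholesterol list are not reported here by name.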

Additional observations from a re-analysis of the deposited data

Results flagged for a closer look

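Between the EMC7 and the EMC10 inputs 2 genes differed, by the edgeR test of that difference, and both are tagged subunits. EMC7 was 4.05 higher in EMC7 than in EMC10 inputs on the log2 scale, and EMC10 was -3.12 on the same scale. The IP libraries entered the same fit and come from the same preparations. In both EMC6 IPs all 12 of the largest rises lay above the IPs of the other lines. All 12 of the largest falls lay below the IPs of the other lines, beside 14.4% and 21% of all tested genes. Rises such as FBXO27 and RSPH6A passed the filter through the EMC6 libraries, so for them these shares are not a like comparison. EMC10, among the falls, is the bait of the EMC10 IPs.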

How the results depend on the processing

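The counts of genes called depend on the scaling and the test. Higher against the mean of the others, against EMC7 inputs and against EMC10 inputs were 713, 395 and 532 genes with DESeq2, 3434, 2935 and 2811 with library size alone, 593, 289 and 449 with scaling on the cytosolic lists, and 236, 166 and 172 in a test against a fold of 1.5, which called 951, 906 and 750 lower. Scaling on the secreted, lysosomal and ER luminal lists called 6033, 5701 and 5400 higher and 462, 370 and 407 lower. Members of the membrane and secreted lists called lower numbered 218 under that scaling and 403 against a fold of 1.5. Leaving out each input gave 990 to 1307 higher and 1621 to 2176 lower (415 to 893 and 1456 to 2078 against EMC7 inputs, 732 to 1093 and 1485 to 2124 against EMC10 inputs), and 540 to 822 list members lower. Without the 3 tagged subunits 0 genes differed either way between EMC7 and EMC10 inputs in edgeR. Of the 24 largest differences 15 passed a filter of 10 counts in 5 inputs. With 2 EMC6 inputs, a rise near 0 counts in the other 5 cannot pass that filter, so this count is no test of the rises. The 24 kept their direction in every fit that leaves out 1 input. The chromosome 13 median of 0.46 was 0.4448 with the 7 inputs alone, 0.4644 with DESeq2, 0.4487 and 0.4542 with the secretory and cytosolic scalings, 0.4385 without a filter, 0.4181 with 10 counts in 5 inputs, 0.4174 with counts thinned to the shallowest input, 0.4657 without EMC6, EMC7 and EMC10, 0.4789 with a replicate block and 0.4059 to 0.4939 when each input was left out.

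Some directions turned, among them those of 4 genes called lower (EMC3, EMC4, MMGT1 and SLC7A1). EMC6 stood at 0.039 with library size alone, 0.525 with the secretory scaling (adjusted p = 0.0104), 0.006 without EMC6 input 1 and -0.685 without EMC6 input 2. The secretory scaling put EMC3 at 0.14, EMC4 at 0.24, MMGT1 at 0.016, EMC8 at 0.49 and SLC7A1 at 0.086. Over the fits without 1 input EMC9 ranged from -0.011 to 0.502, ATF4 from -0.376 to 0.837 and CEBPG from -0.823 to 0.88. The tail-anchored median was -0.003904 without a filter. Over the fits without 1 input it ranged from -0.001962 to 0.1267, the cytosolic median from -0.0946 to 0.2012 and the mitochondrial median from -0.05157 to 0.1338. The cause was not tested, except that the secretory scaling sets those lists to 0 by construction.

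The labels call the replicate number a batch, but nothing says that lines were processed together by number. Deviations of same-numbered inputs correlated at -0.187 between EMC6 and EMC7 inputs and at 0.222 and 0.224 between EMC6 and EMC10 inputs. Between EMC7 and EMC10 inputs they correlated at -0.0913 and -0.13. In a line with 2 inputs the deviations mirror each other, so these values cannot show whether a number was a shared batch. With a replicate block 1287 genes were higher and 2007 lower. Genes with few counts in the shallow EMC6 inputs have wide intervals. A comparison by the number of predicted membrane segments had been planned and was not run, for want of a protein table here.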
